A study of Mus musculus with 8 samples.

Results

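Marker genes of the cells that surround brain capillaries and arterioles were followed in RNA of sorted brain endothelial cells. They are the pericyte markers Pdgfrb, Rgs5, Kcnj8, Vtn and Cspg4, the smooth muscle markers Acta2, Tagln, Myh11 and Smtn, and the fibroblast marker Apod. The genes were picked by symbol, and all 10 of 10 were found among the 24394 symbols shared by the tables. The 8 libraries fall into 2 groups of 4. YT-ECKO libraries came from VE-cadherin-CreERT2 Yapf/f Tazf/f mice, which carry floxed Yap and Taz alleles and a Cre recombinase driven by an endothelial promoter, and WT libraries came from wild-type mice. Mice of both groups are labelled C57BL/6J, and brain endothelial cells were collected from them by flow cytometry at postnatal day 8. The labels name no Cre or floxed allele in the WT mice and no treatment in either group. Cre, floxed alleles and any treatment therefore cannot be told apart from the deletion. Nor is it stated whether the libraries of a group are from different mice, so p-values cover the spread between these samples, which may be technical.

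Pericytes and smooth muscle cells, together called mural cells, wrap the endothelial tube and share its basement membrane. Endothelial PDGF-B, acting on the receptor encoded by Pdgfrb, recruits pericytes to growing brain vessels, and the mural coat supports the blood-brain barrier. Perivascular fibroblasts lie outside the mural layer of larger vessels. Yap and Taz are transcriptional co-activators that act through TEAD factors, and the Cre driver used here directs their deletion to endothelial cells, not to mural cells or fibroblasts.

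The unit used throughout is the scaled read, the deposited log2 value taken back to a linear scale, where a 0 stays a 0. Library sums lay between 10.3 and 11 M scaled reads. Values given for single libraries always run from replicate 1 to replicate 4 of a group. The spacing of low values implied a depth of about 6.53 to 13.6 M reads in YT-ECKO libraries and 7.36 to 16.8 M in WT libraries. Between 7538 and 8762 shared symbols were above 0 in a YT-ECKO library and between 8621 and 9720 in a WT library. The ribosomal RNA precursor Rn45s took 8.95% to 14.7% of the YT-ECKO totals and 8.37% to 13.4% of the WT totals. Many genes were well above 0 in one library and at 0 in the next, so a 0 is given as listed at 0 and such genes are given library by library. Among the 5365 genes with a mean of 20 to 250 scaled reads, 41.9% to 57.1% were listed at 0 in a YT-ECKO library and 28.5% to 41.9% in a WT library. All 20 endothelial identity genes, Egfl7 and Esam the most abundant among them, were above 0 in all 8 libraries. In scaled reads their sum ran from 196000 to 248300 across YT-ECKO libraries and from 230300 to 243600 across WT libraries. The deleted genes were lower in every YT-ECKO library than in any WT library. Yap1, which encodes Yap, stood at 9.29, 605, 293 and 402 scaled reads in the YT-ECKO libraries, against 2833, 1726, 1409 and 1887 in the WT libraries, and its fitted log2 difference of -2.39 ± 0.52 (SE) did not pass the test (limma adjusted p = 0.174). Wwtr1, which encodes Taz, stood at 348, 2608, 1261 and 1124, against 8220, 5906, 6756 and 5650, and was among the genes called (limma adjusted p = 0.0114). The kit reads 3' ends, and no source used here says whether these lie in the floxed parts.

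The 10 members split into a sparse set of 8 and a pair that was always present. Pdgfrb, Rgs5, Kcnj8, Vtn, Cspg4, Acta2, Tagln and Myh11 were each listed at 0 in at least 1 library, while Smtn and Apod were above 0 in all 8. Being above 0 in all 8 libraries was true of 19.9% of all symbols. Of the 8 sparse members, 7 were above 0 in fewer YT-ECKO than WT libraries, 0 in more, and 1, Tagln, in as many. Among all 8083 genes above 0 in some but not all libraries, 56.9% were above 0 in fewer YT-ECKO libraries and 24.9% in more. When only values of at least 10 or at least 50 scaled reads were counted, 6 members were so listed in fewer YT-ECKO libraries, with backgrounds of 58.4% and 54.5%. The members thus leaned the way most sparse genes did. The 8 sparse members together summed to 155.6, 58.5, 1152 and 355 scaled reads in the YT-ECKO libraries, against 1388, 1357, 431 and 413 in the WT libraries. These sums were 0.0247% to 0.464% of the endothelial identity sum in YT-ECKO libraries and 0.177% to 0.598% in WT libraries. In sorted bulk RNA, fewer cells of a type and less RNA per cell cannot be told apart. Nor can the purity of the sort or expression by the endothelium itself. As the cells were sorted as endothelial, the sums are no measure of mural cells or fibroblasts in the brain.

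**Figure D1:**
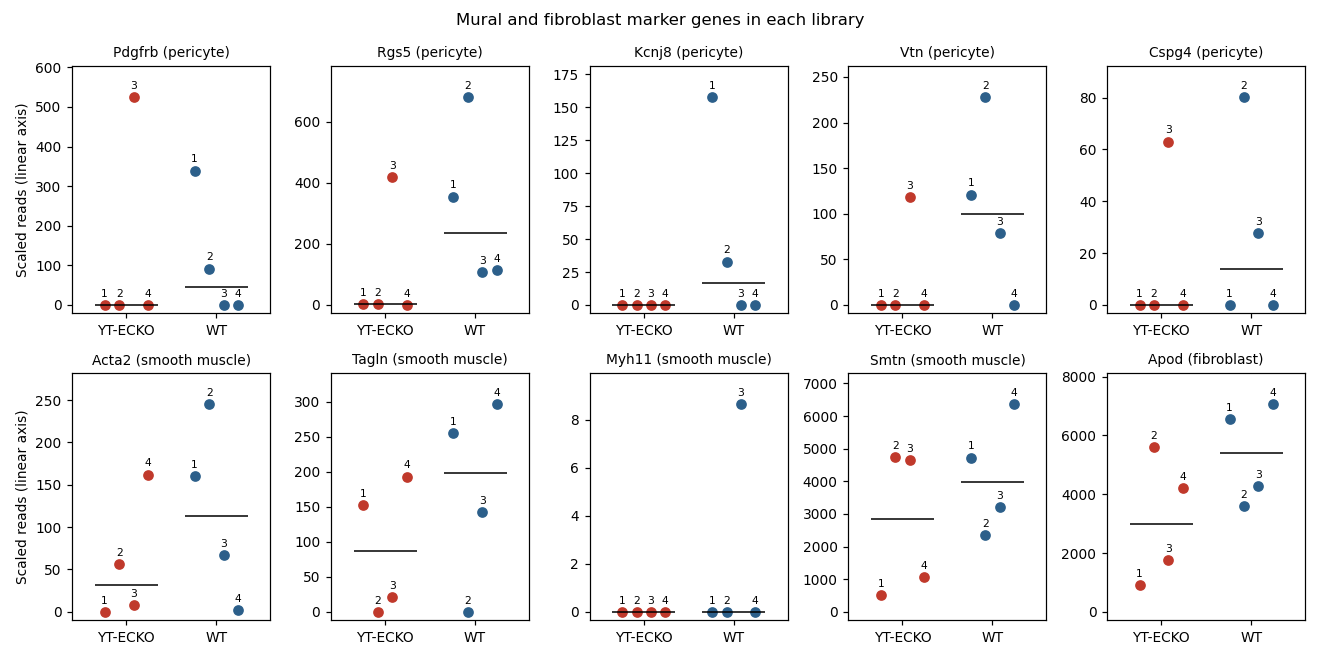
Scaled reads (linear axis, a separate scale for each gene) of the 10 members in the 4 YT-ECKO libraries (red, left) and the 4 WT libraries (blue, right), numbered by library, with a line at the group median. Most pericyte markers stood at 0 in 3 of 4 YT-ECKO libraries and above 0 in YT-ECKO 3, while Smtn and Apod were above 0 in every library.

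Over all 8706 genes tested, 3 were lower and 0 higher in YT-ECKO at a limma adjusted p under 0.05, which is 0.0345% and 0% of the genes. Testing required 10 or more scaled reads in 4 or more libraries. Of the members, 6 were tested, and Pdgfrb, Kcnj8, Cspg4 and Myh11 were not. None of the 6 passed (limma adjusted p from 0.882 to 0.99), and voom, run as a second method, called none either. Apod alone had an unadjusted limma p under 0.05, on a background of 3.69% of tested genes with such a p and lower values. The 6 fitted log2 differences were all below 0 with a median of -0.75, where 56.9% of all tested genes lay below 0 and the median of all was -0.09. Rgs5 reached 10 scaled reads in all 4 WT libraries, which alone met the filter, and among YT-ECKO libraries in YT-ECKO 3 only. Vtn passed the filter through 3 WT libraries and 1 YT-ECKO library. In both patterns the filter favours a difference below 0. No member had groups that did not overlap, against 3.4% of tested genes.

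**Figure D2:**
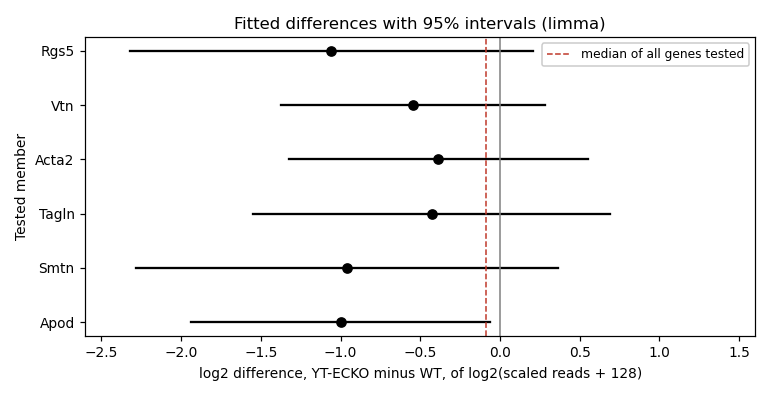
Fitted log2 differences (YT-ECKO minus WT) of the 6 tested members on the log2 scale with a pseudocount used for the test, with 95% intervals from limma. The dashed line is the median of all genes tested (-0.09), and each interval other than that of Apod reaches across 0.

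Among the pericyte markers, Rgs5 was the most widely detected. It encodes a regulator of G protein signalling enriched in brain pericytes (gene at chr1:169655501-169695813, plus strand, GRCm38). It stood at 3.13, 1.76, 418.5 and 0 scaled reads in the YT-ECKO libraries, against 356, 680, 107 and 114 in the WT libraries. Only YT-ECKO 3 reached the WT range, and the other YT-ECKO libraries held a few reads or none. The fitted log2 difference was -1.06 ± 0.61 (SE; 95% interval from -2.32 to 0.21; limma adjusted p = 0.96), and the two-sided exact permutation p was 0.2. YT-ECKO 3 was the one library that overlapped, so without it the groups were apart, as were those of 7.25% of all genes tested, and the log2 difference was -1.58 (limma adjusted p = 0.644). Without WT 2 the difference was -0.70, more than 1.5 times smaller (limma adjusted p = 0.996).

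Pdgfrb encodes the PDGF receptor beta, the receptor through which pericytes are recruited (gene at chr18:61045150-61085061, plus strand). For Pdgfrb, YT-ECKO 3 held 524 scaled reads, the highest value of all 8 libraries, and YT-ECKO 1, 2 and 4 were listed at 0. In WT libraries it stood at 339, 91.8, 0 and 0. Both groups thus held libraries at 0 and libraries well above it, and the exact permutation p was 1. Vtn, which encodes the matrix glycoprotein vitronectin made by brain pericytes (chr11:78499091-78502324, plus strand), was at 0, 0, 118 and 0 scaled reads in the YT-ECKO libraries, against 121, 228, 78.8 and 0 in the WT libraries. Its YT-ECKO 3 value lay inside the range of the WT libraries above 0. The log2 difference of Vtn was -0.55 ± 0.40 (SE; limma adjusted p = 0.981), and it ranged from -0.81 (without WT 4) to -0.32 (without WT 2) when one library was left out.

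Kcnj8, which encodes the pore subunit Kir6.1 of an ATP-sensitive potassium channel (chr6:142564837-142571614, minus strand), was listed at 0 in all 4 YT-ECKO libraries. In WT it was above 0 in WT 1 and WT 2, at 157 and 32.9 scaled reads, and at 0 in WT 3 and WT 4. Abcc9, chosen after its values were seen because it encodes the regulatory subunit SUR2 of the same channel, stood at 0, 767, 95.9 and 0 in the YT-ECKO libraries, against 326, 0, 0 and 0 in the WT libraries. The pair was above 0 together in WT 1 only. Cspg4 encodes the proteoglycan NG2 on mural cells and oligodendrocyte precursors (chr9:56865033-56899870, plus strand). It was at 63 scaled reads in YT-ECKO 3 and 0 in the other YT-ECKO libraries, against 80.1 in WT 2, 27.7 in WT 3 and 0 in WT 1 and WT 4. The exact permutation p was 0.429 for Kcnj8 and 0.714 for Cspg4, and with 4 libraries against 4 it cannot lie below 0.0286.

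The number of pericyte members above 0 varied widely between libraries of either group. It was 1, 1, 4 and 0 of 5 in YT-ECKO 1 to 4, against 4, 5, 3 and 1 of 5 in WT 1 to 4. Summed over the 5 genes, the YT-ECKO libraries held 3.13, 1.76, 1124 and 0 scaled reads, against 973, 1113, 214 and 114 in the WT libraries. YT-ECKO 3 held the highest sum of all 8 libraries and the other YT-ECKO libraries the 3 lowest. The ratio of the YT-ECKO mean to the WT mean was 0.467, and 0.0027 without YT-ECKO 3, so that 1 library sets the YT-ECKO mean. The libraries of greatest implied depth, YT-ECKO 3 (13.6 M reads) and WT 1 (16.8 M), held 1124 and 973, and YT-ECKO 1 (6.53 M) held 3.13. YT-ECKO 2, at 12 M, held 1.76 and WT 2, at 7.36 M, held 1113. The part of depth in these sums was not tested. Over the 8 libraries, on the same log2 scale as the test, Pearson's r over the 10 pairs of pericyte members ranged from -0.07 for Cspg4 and Kcnj8 to 0.935 for Vtn and Rgs5, with a median of 0.602. These correlations are descriptions over 8 points that share library depth and many zeros.

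**Figure D3:**
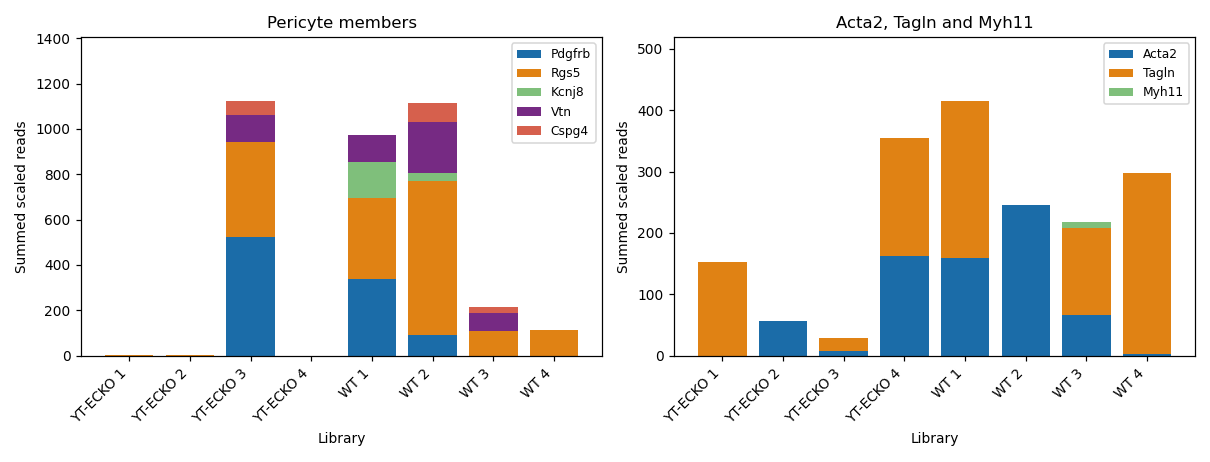
Summed scaled reads (linear axis from 0) of the 5 pericyte members (left) and of Acta2, Tagln and Myh11 (right) in each library, YT-ECKO libraries left of WT libraries, stacked by gene. The pericyte sum reached 1124 in YT-ECKO 3 and at most 3.13 in the other YT-ECKO libraries, and the right-hand sums did not share this order.

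Among the smooth muscle markers of the contractile apparatus, Myh11 was at or near 0, while Acta2 and Tagln reached 245 and 296 scaled reads in single libraries. Myh11, which encodes the smooth muscle myosin heavy chain and is the most specific of them (chr16:14194535-14291372, minus strand), was listed at 0 in all 4 YT-ECKO libraries and in WT 1, 2 and 4, and stood at 8.65 scaled reads in WT 3. Acta2 encodes smooth muscle alpha-actin (chr19:34241090-34255590, minus strand). It was at 0, 56.7, 7.65 and 162 scaled reads in the YT-ECKO libraries, against 160, 245, 66.7 and 1.99 in the WT libraries. The groups overlapped over most of their ranges, and the log2 difference was -0.39 ± 0.45 (SE; limma adjusted p = 0.99). Acta2 has close relatives among the actin genes, and no source used here says how reads shared between them were counted. Actg2, the other smooth muscle actin gene, was listed at 0 in all 8 libraries. Without one library at a time the difference ranged from -0.66 (without WT 4) to -0.15 (without WT 2). Acta2 stood at 7.65 scaled reads in YT-ECKO 3 and 162 in YT-ECKO 4, whose pericyte sums were 1124 and 0, and at 160 and 245 in WT 1 and WT 2, whose pericyte sums were 973 and 1113. Its r with the 5 pericyte members ranged from 0.09 for Pdgfrb to 0.53 for Kcnj8.

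Tagln, which encodes the actin-binding protein transgelin or SM22 alpha (chr9:45929619-45936058, minus strand), stood at 152, 0, 20.7 and 193 scaled reads in the YT-ECKO libraries, against 255.5, 0, 142 and 296 in the WT libraries. Each group thus held 1 library at 0, and the log2 difference was -0.43 ± 0.54 (SE; limma adjusted p = 0.99). It ranged from -0.79 (without WT 2) to -0.21 (without YT-ECKO 2) when one library was left out. The 3' end of Tagln overlaps that of Pcsk7 (chr9:45906497-45929726, plus strand), a gene for a proprotein convertase, by 108 bases on opposite strands. Pcsk7 stood at 457, 2.65, 62.2 and 996 scaled reads in the YT-ECKO libraries, against 1202, 211, 829 and 1954 in the WT libraries. Tagln followed Pcsk7 across the libraries (r = 0.943 over 8 libraries, a description) at 0% to 33.3% of its value. It did not follow Acta2 (r = -0.14). Without a stated strand setting, reads in the 108 shared bases cannot be assigned to Tagln or to Pcsk7. Their part in the Tagln values was not tested, and WT 2 held Pcsk7 at 211 with Tagln at 0.

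**Figure D4:**
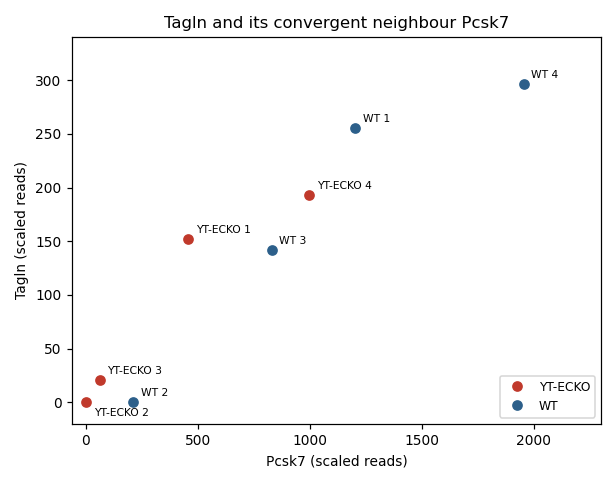
Tagln against Pcsk7 (both in scaled reads, linear axes) in each library, YT-ECKO in red and WT in blue. Libraries with more Pcsk7 had more Tagln in both groups, from YT-ECKO 2 at 2.65 and 0 to WT 4 at 1954 and 296.

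Smtn and Apod were above 0 in all 8 libraries, at 523.5 scaled reads or more for Smtn and 915 or more for Apod. Smtn encodes smoothelin, a cytoskeletal protein of contractile smooth muscle (chr11:3517523-3540612, minus strand). It stood at 523.5, 4751, 4644 and 1064 scaled reads in the YT-ECKO libraries, against 4725, 2343, 3203 and 6356 in the WT libraries. The YT-ECKO libraries formed a low and a high pair, and the high pair lay inside the WT range. The group means were 2745 ± 2265 in YT-ECKO and 4157 ± 1767 in WT (SD, n = 4 each). On the log2 scale the difference was -0.96 ± 0.61 (SE; 95% interval from -2.28 to 0.36; limma adjusted p = 0.98). Without YT-ECKO 1 the difference was -0.41 (limma adjusted p = 0.969). Without YT-ECKO 2 it was -1.37. Of 23 further smooth muscle and contractile genes, 11, 11, 12 and 12 were above 0 in the YT-ECKO libraries, against 12, 11, 12 and 10 in the WT libraries. Mylk and Tpm1 were among the 8 above 0 in all libraries, 8 were above 0 in some, and Lmod1, Sncg, Pln, Actg2, Mustn1, Myocd and Casq2 were listed at 0 throughout. Smtn had r = -0.07 with Acta2 and 0.07 with Myh11 over the 8 libraries. Myh11 was above 0 in WT 3 only, so its r rests on that library and says little of likeness.

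Apod, the only fibroblast marker among the members, encodes apolipoprotein D, a secreted lipocalin that binds small lipids (chr16:31296192-31314808, minus strand). It stood at 915, 5607, 1773 and 4202 scaled reads in the YT-ECKO libraries, against 6544, 3598, 4279 and 7058 in the WT libraries. The lowest values were those of YT-ECKO 1 and 3, and the other YT-ECKO libraries lay within the WT range. Group means were 3124 ± 2163 in YT-ECKO and 5370 ± 1689 in WT (SD, n = 4 each), which gave an exact permutation p of 0.143. The log2 difference was -1.0 ± 0.45 (SE; 95% interval from -1.94 to -0.06), with an unadjusted limma p of 0.0383 and an adjusted p of 0.882. It was -0.55 without YT-ECKO 1 (limma adjusted p = 0.905) and -1.37 without YT-ECKO 2. Of 24 further fibroblast genes, 3, 5, 5 and 7 were above 0 in the YT-ECKO libraries, against 9, 10, 9 and 6 in the WT libraries. Igf2 and Foxc1 were above 0 in all 8, and 14 were above 0 in some. The fibroblast markers Lum, Dpt, Slc6a13, Cyp1b1, Mfap4, Mfap5, Gjb2 and Nupr1 were listed at 0 in all 8 libraries, and Dcn, which encodes decorin, was above 0 in WT 2 only (225 scaled reads).

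The pair shared a wide spread within YT-ECKO. On the log2 scale of the test the SD was 1.46 for Smtn and 1.12 for Apod in YT-ECKO, against 0.61 and 0.46 in WT. Among the 1935 tested genes whose mean reached 1000 scaled reads, the median SD was 0.54 in YT-ECKO and 0.45 in WT. The YT-ECKO SD of Smtn exceeded that of 93.1% of these genes and that of Apod exceeded 88.5%. Smtn and Apod had r = 0.674 with each other over the 8 libraries, and both were lowest in YT-ECKO 1, the library with the lowest implied depth (6.53 M reads). The part of depth in their values was not tested.

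The promoters shown are those of Smtn and Apod, the members present everywhere, and of Rgs5 and Acta2. Rgs5 and Acta2 are the most widely detected sparse pericyte and smooth muscle markers without an overlapping gene. Promoters were searched for the core motif of the TEAD factors through which Yap and Taz act. Each window runs from 250 bases before to 50 bases after the start that RefSeq (GRCm38.p6) gives, 5′ to 3′ on the strand of the gene. That start equals the GENCODE start given above for Apod and Rgs5 and lies 1320 bases inside the GENCODE gene for Smtn and 217 bases inside it for Acta2. Capitals mark the TEAD core motif GGAATG or its reverse complement.
Smtn, chr11:3539243-3539542, minus strand: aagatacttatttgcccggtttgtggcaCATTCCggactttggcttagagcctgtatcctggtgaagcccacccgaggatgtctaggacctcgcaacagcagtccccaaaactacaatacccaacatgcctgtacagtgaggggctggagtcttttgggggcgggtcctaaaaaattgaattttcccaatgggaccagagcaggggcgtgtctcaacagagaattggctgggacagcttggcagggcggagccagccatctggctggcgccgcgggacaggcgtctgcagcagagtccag
Apod, chr16:31314759-31315058, minus strand: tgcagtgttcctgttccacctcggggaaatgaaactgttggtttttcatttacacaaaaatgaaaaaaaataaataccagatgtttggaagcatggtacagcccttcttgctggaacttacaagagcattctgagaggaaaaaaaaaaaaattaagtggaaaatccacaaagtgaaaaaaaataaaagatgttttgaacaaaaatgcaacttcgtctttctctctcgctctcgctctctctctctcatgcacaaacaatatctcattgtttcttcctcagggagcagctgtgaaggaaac
Rgs5, chr1:169655251-169655550, plus strand: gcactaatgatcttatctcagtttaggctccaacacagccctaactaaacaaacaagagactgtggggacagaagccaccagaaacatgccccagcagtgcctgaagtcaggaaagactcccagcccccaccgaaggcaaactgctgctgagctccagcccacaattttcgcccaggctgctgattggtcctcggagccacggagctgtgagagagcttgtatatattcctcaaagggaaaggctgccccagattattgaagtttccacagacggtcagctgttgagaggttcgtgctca
Acta2, chr19:34255324-34255623, minus strand: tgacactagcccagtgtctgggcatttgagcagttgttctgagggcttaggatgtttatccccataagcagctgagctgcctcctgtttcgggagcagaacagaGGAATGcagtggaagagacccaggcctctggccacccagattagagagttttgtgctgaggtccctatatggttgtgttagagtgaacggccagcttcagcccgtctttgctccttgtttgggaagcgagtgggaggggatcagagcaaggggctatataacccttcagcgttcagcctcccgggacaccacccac
The motif began 222 bases before the RefSeq start in Smtn and 146 bases before it in Acta2, and was not present in these windows of Apod and Rgs5. Entries were used for 7 members. Pdgfrb was left out of the motif search, and Tagln and Myh11 had no entry, so only part of the members is covered. Of the 7, 3 held the motif on either strand, the third being Vtn, against 14.7% of all 32851 promoters of this length. A match describes the letters only. The log2 differences of the members with the motif were -0.39, -0.96 and -0.55 for Acta2, Smtn and Vtn, and none passed the test. Of the members whose windows lacked it, Rgs5 and Apod had -1.06 and -1.0 and did not pass either, and Kcnj8 and Cspg4 were not tested.

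Other markers of the same cell types, 67 in the tables, were mostly sparse as well. Of these, 18 were listed at 0 in all 8 libraries and 12 were above 0 in all 8. Among 20 further pericyte markers, 3 were at 0 throughout and 15 were above 0 in some but not all libraries. Of these 15, 7 were above 0 in fewer YT-ECKO than WT libraries and 4 in more, where the shares over all such genes were 56.9% and 24.9%. Only 4 of the further pericyte markers were tested, Gper1, Gjc1, Mcam and Zic1, and 0 passed. Their fitted differences were below 0 with a median of -0.42, but Gper1 met the filter through the WT libraries alone, which fixed its sign. Gper1, a G protein-coupled estrogen receptor gene, had the smallest p of the list. It was listed at 0 in YT-ECKO 1 to 3 and at 1.17 scaled reads in YT-ECKO 4, against 143, 188, 211 and 120 in WT 1 to 4. The groups did not overlap, as was so for 3.4% of tested genes (exact permutation p = 0.0286, the smallest possible), and the limma adjusted p was 0.675. Gper1 was named for its small p, so these values are no separate support. Zic1, a transcription factor gene, stood at 0, 0, 38.4 and 35.6 scaled reads in the YT-ECKO libraries, against 41.2, 103, 0 and 0 in the WT libraries. Mcam, a cell adhesion gene that endothelium also expresses, stood at 4589 ± 2878 scaled reads in YT-ECKO and 4525 ± 863 in WT (SD, n = 4 each).

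**Figure D5:**
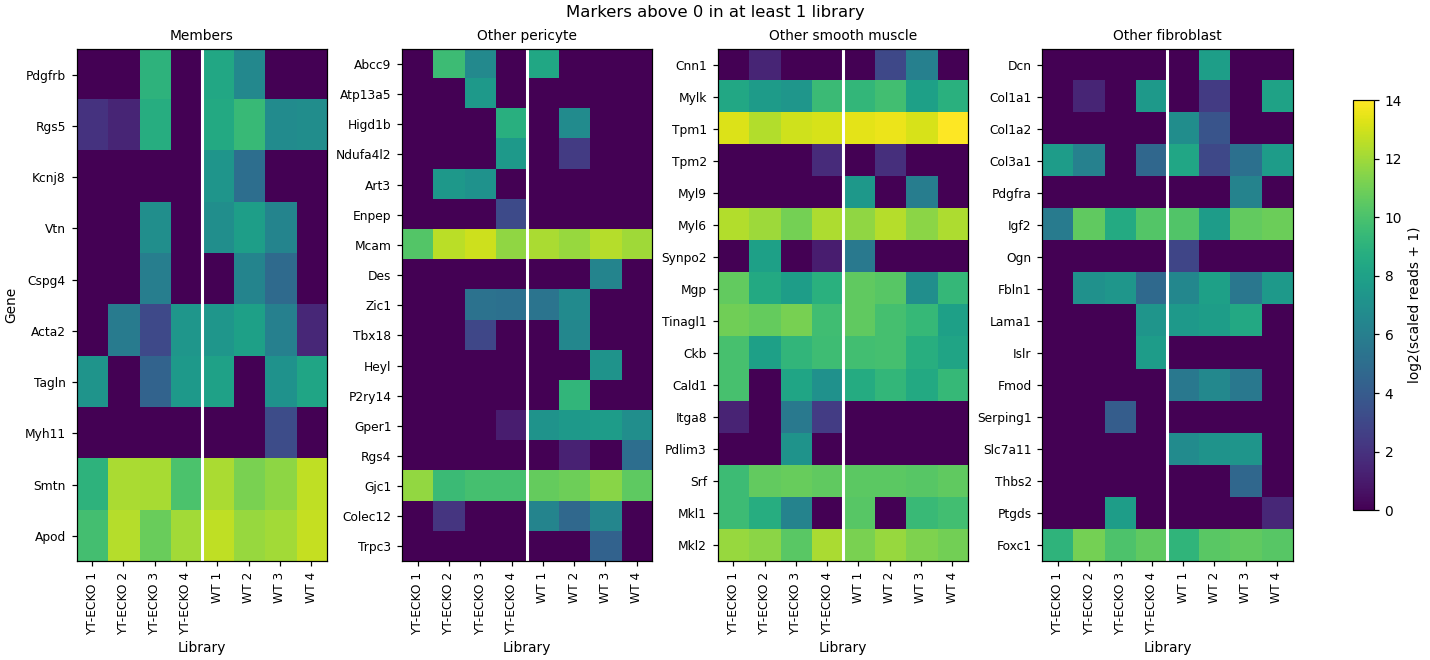
Levels as log2(scaled reads + 1) of the 10 members and of the other pericyte, smooth muscle and fibroblast markers above 0 in at least 1 library. Each column is a library, with YT-ECKO left and WT right of the white line. Dark cells are at 0, and a few rows such as Smtn, Apod, Mcam and Tpm1 are filled in all 8 libraries.

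Among the 23 further smooth muscle and contractile genes, 10 were tested, 7 with fitted differences below 0 and 3 above, with a median of -0.21, and 0 passed. Of the 8 that were above 0 in every library, Tpm1, Myl6, Srf and Mkl2 are used by many cell types. The others were Mylk, Mgp, Tinagl1 and Ckb. Tpm1, a tropomyosin gene, had the smallest p, with 8052 ± 1997 scaled reads in YT-ECKO and 12840 ± 4195 in WT (SD, n = 4 each). Its fitted difference was -0.65 ± 0.28 on the log2 scale (SE; limma adjusted p = 0.865). Tinagl1, a matrix gene also made by endothelium, stood at 1667 ± 597 in YT-ECKO and 846 ± 541 in WT (log2 difference 1.0 ± 0.48, SE; limma adjusted p = 0.91). Cald1, which encodes caldesmon, had a log2 difference of -0.80 ± 0.62 (SE) and Mkl1, a co-activator of SRF, one of -0.89 ± 0.75 (SE), each with a library at 0.

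Of the 24 further fibroblast genes, 14 were above 0 in some but not all libraries, 10 of them in fewer YT-ECKO than WT libraries and 2 in more. Over all genes so listed, 56.9% were above 0 in fewer YT-ECKO libraries and 24.9% in more. The 5 tested genes of the fibroblast list had a median log2 difference of -0.39, with 4 below 0, 1 above and 0 past the threshold. Lama1, a laminin chain of the pial and perivascular basement membrane, was listed at 0 in YT-ECKO 1 to 3 and at 159 scaled reads in YT-ECKO 4, against 188, 223.5, 343 and 0 in WT 1 to 4. Its log2 difference was -0.87 ± 0.50 (SE; limma adjusted p = 0.96). Lama1 passed the filter mostly through WT libraries, which favours a difference below 0. Col3a1, Igf2 and Fbln1 had log2 differences of -0.33, -0.71 and -0.38, with values that overlapped between the groups.

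The signals that pass between endothelium and mural cells were also measured, 28 genes of which 22 were tested. Fitted differences were below 0 for 16 and above 0 for 6, with a median of -0.16, and 0 passed the adjustment or had an unadjusted limma p under 0.05. Pdgfb, the endothelial ligand of the Pdgfrb receptor, stood at 1846, 4150, 2974 and 1883 scaled reads in the YT-ECKO libraries, against 3891, 3272, 4663 and 3061 in the WT libraries. Its values overlapped, with a log2 difference of -0.50 ± 0.34 (SE; 95% interval from -1.21 to 0.21; limma adjusted p = 0.981). Angpt2, an antagonist of the Tie2 receptor, was at 0 in YT-ECKO 1 and had a log2 difference of -0.96 ± 0.62 (SE). Notch3, the Notch receptor of mural cells, was at 0 in YT-ECKO 1 to 3 and 41.4 in YT-ECKO 4, against 107, 38.8, 97.9 and 0 in WT 1 to 4. Notch3 thus passed the filter mostly through WT libraries, which favours a difference below 0. Gjc1, which encodes connexin 45, had a log2 difference of -0.61 ± 0.44 (SE). Angpt1, the Tie2 ligand made by mural cells, was above 0 in WT 2 only, at 134 scaled reads.

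Markers of other brain cells were present at differing levels. The sum of 8 microglial genes was 0 to 130 scaled reads across YT-ECKO libraries and 0 to 161 across WT libraries, with P2ry12, Tmem119 and C1qa at 0 in all libraries. Its most abundant genes were Csf1r, above 0 in YT-ECKO 4 and WT 1, and Cx3cr1, above 0 in WT 2 and WT 3. The 8 oligodendrocyte lineage genes summed to 165.4 to 1283 in YT-ECKO and 1.99 to 515 in WT, with 4 at 0 throughout. Cnp, a myelin enzyme gene, was the most widely detected of them, at 280, 101, 714 and 0 scaled reads in the YT-ECKO libraries, against 515, 71.7, 192 and 1.99 in the WT libraries. The 8 neuronal genes summed to 0 to 1896 in YT-ECKO and 5.97 to 187 in WT, and 4 of them were at 0 throughout. Stmn2 was the most abundant of them after Rbfox3, with at most 520 scaled reads in a YT-ECKO library and 99.5 in a WT library. Astrocyte genes summed to 497 to 1075 in YT-ECKO and 766 to 1240 in WT, where Gja1, which endothelium also expresses, and Slc1a2 made up most of the sum. Hemoglobin and other erythroid genes summed to 9039 to 30070 in YT-ECKO and 8816 to 24970 in WT, counting identical rows once. Hba-a1 and Hbb-bs, which have near-identical copies, were the most abundant of these. The choroid plexus and ependymal genes summed to 2405 to 5499 in YT-ECKO and 2101 to 10220 in WT, and Enpp2, a secreted lysophospholipase gene, stood at 2395 to 5492 in YT-ECKO and 2101 to 5397 in WT. Their part in the values of the 10 members was not tested.

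Genes whose pattern over the 8 libraries was most like the members were sought among all tested genes. For the summed pericyte members, the 5 highest Pearson correlations on the log2 scale of the test were those of Thap1 (0.968), Kif15 (0.968), Mterf4 (0.954), Lgals2 (0.951) and Spcs1 (0.95). None of them is a member of the marker lists. Kif15, which encodes a mitotic kinesin, stood at 1.59, 0, 466 and 0 scaled reads in the YT-ECKO libraries, against 367, 315, 145.5 and 0 in the WT libraries. For the summed smooth muscle members, which Smtn dominates, they were Rufy2 (0.979), Ap2a1 (0.972), Fuz (0.97), Hmcn1 (0.968) and Adm (0.961). Fuz overlaps Ap2a1 by 2259 bases on the opposite strand and stood at 49% to 50% of its value in every library with Ap2a1 above 0, so the 2 genes are not separate patterns. Over 8 points and 8706 genes, correlations of this size carry no statement about shared function.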

How the data were processed

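RNA of brain endothelial cells sorted at postnatal day 8 was measured in 8 libraries, 4 YT-ECKO and 4 WT. Libraries were made from 500 ng of Trizol-extracted total RNA with a Lexogen Quant-Seq kit, per the labels' protocols. The submitters' processing notes name Bowtie2, edgeR and the mm10 build, and no source used here gives versions, the counting tool, the annotation or the strand setting. For each library the authors deposited log2 values by gene symbol. Judged from the values, they are log2 read counts after scaling of the libraries to one size, since 81.3% to 100% of linear values under 12 lay within 0.1 of a whole multiple of a step. The step varied slightly between genes, so implied depths are approximate. Values were returned to the linear scale and tested with limma 3.58.1 (R 4.3.3, with a trend and robust variances) on log2(scaled reads + 128), with Benjamini-Hochberg adjustment over the 8706 genes that reached 10 scaled reads in 4 libraries. On this scale the differences of low genes come out too small. Two-sided exact permutation tests compared single values. The code was tested on simulated libraries. Coordinates are those of genes in GENCODE M21 (GRCm38), matched by symbol. The members, gene lists, pseudocount and alternatives were chosen with earlier results of these data known. Besides the 10 members, the text names the 4 genes with the smallest p of each mural, fibroblast or signalling list, the most abundant 2 of each other list, the 5 genes most like the summed pericyte and smooth muscle members, and genes said to be chosen after their values were seen, which includes those listed because they were at 0.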

Additional observations from a re-analysis of the deposited data

Results flagged for a closer look

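In 22 sets of 4 libraries of one group, a library stood far from the other 3 in 6 cases. Chance gives about 1 in 20 for values without ties, but in 4 of the 6, Pdgfrb, Vtn, Cspg4 and Myh11, the other 3 libraries were all at 0, so that any value above 0 would be picked out and the rate does not apply. The cases are not independent, since 5 of them concern YT-ECKO 3 and the same class of genes. In YT-ECKO 3 Pdgfrb stood at 524 scaled reads, Rgs5 at 418.5, Vtn at 118 and Cspg4 at 63, far above the other YT-ECKO libraries, and the summed pericyte members stood at 1124. Myh11 stood at 8.65 scaled reads in WT 3 and at 0 in the other WT libraries.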

How the results depend on the processing

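The number of members past an adjusted p of 0.05 was 0 under each of the 22 alternatives, and the 6 fitted differences kept their sign in each in which they were tested. The number of genes called over all genes, 3, became 0 with a pseudocount of 1, on deposited log2 values, without a filter and with voom on rebuilt reads. It became 5 with the replicate block and lay between 0 and 7 without one library at a time. The lowest came without WT 2, WT 1 and WT 4 gave 1 each, and the highest came without YT-ECKO 3. The cause was not tested. Same-numbered libraries had correlated deviations of only -0.0433 to 0.0763, so the numbers were not read as pairs. The log2 difference of Rgs5 ranged from -5.10 (voom) to -0.42, that of Vtn from -4.66 to -0.19, that of Acta2 from -1.80 to -0.14 and that of Tagln from -1.04 to -0.18 over all alternatives. Members with no overlap between the groups numbered 0 to 1 without one library at a time, the 1 being Rgs5 without YT-ECKO 3, where 7.25% of all genes tested did not overlap. The ratio of the summed pericyte members ran from 0.0027 (without YT-ECKO 3) to 0.65. For Acta2, Tagln and Myh11 the ratio, 0.504, was 0.269 without YT-ECKO 4. Counting a value only from 10 or 50 scaled reads, settings added after seeing the data, left 6 members above it in fewer YT-ECKO libraries in place of 7. For genes whose mean reached 1000 scaled reads, the median 95% interval reached 0.84 log2 units to either side, without adjustment over all genes. Smaller differences were mostly not detectable. Larger ones could go uncalled too, as did that of Yap1 (-2.39, limma adjusted p = 0.174).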

Other observations

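Some genes of other cell types stood high in single libraries without their companions. Rbfox3, which encodes the neuronal nuclear antigen NeuN, was at 1375, 0, 0 and 489 scaled reads in the YT-ECKO libraries, against 3.65, 8.65, 0 and 5.97 in the WT libraries, while Syt1, Gad1, Slc17a7 and Nrxn3 were at 0 in all 8 libraries. Mbp, which encodes myelin basic protein, reached 1067 scaled reads in YT-ECKO 2 and was 0 elsewhere, in 7 libraries. Ttr, the choroid plexus transthyretin gene, stood at 9.29, 7.08, 1451 and 1035 scaled reads in the YT-ECKO libraries, against 4692, 337, 1006 and 0 in the WT libraries.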
